A study of Mus musculus with 2 samples.

Results

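The Bcl2 family decides at the mitochondrial outer membrane whether a stressed cell lives or dies, and 10 of its genes were followed here by symbol among the 27998 genes counted in the series. The anti-apoptotic members Bcl2, Bcl2l1 (Bcl-xL) and Mcl1 hold the effectors Bax and Bak1 in check. When the effectors escape, they open pores in the membrane and release cytochrome c, which starts the caspase cascade. The BH3-only members Bad, Bid, Bbc3 (PUMA), Bcl2l11 (BIM) and Pmaip1 (NOXA) sense stress and either block the anti-apoptotic proteins or activate the effectors. In bone, osteoblasts either die by apoptosis, become lining cells or are buried as osteocytes, and parathyroid hormone given intermittently is known for its effect on the number of osteoblasts.

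The study asked how the Gli1 lineage of the femoral metaphysis changes with teriparatide, the amino-terminal fragment of parathyroid hormone used to treat osteoporosis. Gli1-CreERT2;Ai9 mice of both sexes on a mixed background received tamoxifen once a day for 3 days from 1 month of age and then 3 daily intraperitoneal injections of vehicle or of teriparatide at 400 ng/g. In these mice the Cre recombinase is expressed from the Gli1 gene and acts only after tamoxifen, so the red reporter tdTomato marks cells that expressed Gli1 at that time together with their later progeny, and not all bone cells. Cells that were tdTomato+ and CD31-, CD45- and Ter119- were sorted and made into 1 single-cell library per condition. The animals of a condition are taken as pooled in its library, which the labels do not state.

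With 1 library for each condition no difference between the conditions could be tested. A level is the number of UMIs (captured mRNA molecules) of a gene in all cells of one class and library, scaled to 1000000 UMIs of those cells (CPM), and a pair of values in parentheses gives the bounds of its 95% interval. The intervals are exact Poisson for a level, exact binomial for a share and conditional binomial for a ratio. They cover counting error only, not the difference between cells, between mice or between sorts. Levels are compared between cells for the same gene and not between genes, whose transcripts differ in length and capture.

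The vehicle library held 10567335 UMIs in 1286 barcodes and the teriparatide library 26270041 UMIs in 2142 barcodes, of which 549 and 1217 cells passed the filters with a median of 10875 and 14556 UMIs. Mitochondrial genes held over 10% of the UMIs in 55.8% and 40.2% of the barcodes. The libraries shared 2 barcodes, of which 1 was kept. The members had 4319 UMIs in the kept vehicle cells and 12430 in the kept teriparatide cells. Clusters were named from markers fixed for each class, giving 66 and 264 COP-like cells (the chondrocyte-like osteoprogenitors of the study), 61 and 53 preosteoblast-like (preOB-like) cells, 113 and 131 osteoblast-like (OB-like) cells and 125 and 80 MALP-like cells (the marrow adipogenic lineage precursors) in the vehicle and teriparatide libraries. The summed markers followed these names, but the names had been given from the same markers, so the sums are no separate check. The COP markers Sox9, Sox5, Sox6, Col2a1 and Acan had 44274 and 46086 CPM in COP-like cells, against at most 695 CPM in the other three classes. Despite the sort against CD45 and Ter119, clusters with the markers of erythroid cells, granulocyte-monocyte progenitors, neutrophils, monocytes and B cells were present in both libraries. The sexes were unevenly represented, although the study used the same mix of sexes in both groups, with more male than female mice. The COP-like cells held 52 cells called male and 11 called female in the vehicle library and 228 and 25 in the teriparatide library. The preOB-like cells held 27 and 22, then 36 and 6, the OB-like cells 38 and 62, then 100 and 9, and the MALP-like cells 51 and 66, then 62 and 7.

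The promoters of Bax and Bcl2 are shown because the level of Bax differed between the libraries in the same direction in all 4 mesenchymal classes, and the level of Bcl2 separated the clusters of the OB-like class. They were chosen after these values were seen. Each run is the 250 bases before the RefSeq start of the gene on GRCm38.p6, on the minus strand, at chr7:45466899-45467148 for Bax and chr1:106714291-106714540 for Bcl2. The capitals mark the E-box CACGTG in the Bax promoter, which begins 9 bases upstream of the start, and TGACG, the short form of the cAMP response element, in the Bcl2 promoter, 107 bases upstream.
Bax: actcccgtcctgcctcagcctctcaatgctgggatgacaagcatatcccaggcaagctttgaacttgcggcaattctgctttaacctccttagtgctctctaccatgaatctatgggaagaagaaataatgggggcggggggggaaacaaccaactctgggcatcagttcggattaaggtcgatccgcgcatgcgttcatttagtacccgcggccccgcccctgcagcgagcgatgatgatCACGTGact
Bcl2: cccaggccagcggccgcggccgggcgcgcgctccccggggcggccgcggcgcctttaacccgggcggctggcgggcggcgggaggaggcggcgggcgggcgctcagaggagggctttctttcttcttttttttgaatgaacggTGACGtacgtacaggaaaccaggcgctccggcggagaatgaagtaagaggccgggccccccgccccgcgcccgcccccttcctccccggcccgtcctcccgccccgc
Of the 10 members, 9 were searched in the RefSeq table, 15 promoters in all, and Pmaip1 was not searched. The letters CACGTG, which read the same on both strands, stood in promoters of Bax and Bbc3, and 6.02% of the 32851 promoters of the table held them. The letters TGACG or their reverse CGTCA stood in promoters of Bcl2 and Bbc3, against 17.8% of all promoters. The full cAMP response element TGACGTCA, which contains TGACG, and the AP-1 site TGAGTCA or its reverse TGACTCA were in none of the windows searched. Of all promoters, 1.55% and 4.46% held them. The GATA site AGATAA or its reverse TTATCT was in 1 of the members, a Bcl2l1 promoter, against 9.99% of all promoters.

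The anti-apoptotic genes differed between the 4 mesenchymal classes. Over all genes with at least 50 UMIs, OB-like cells ran low against the other 3 classes together. Their median log2 ratio was -0.70 with vehicle and -0.50 with teriparatide, and 55.9% and 45.7% of genes were at least 1.5-fold lower. MALP-like cells ran high, at a median of 0.41 and 0.45, with 40.2% and 43.2% of genes higher. The class orders of the members are to be read against this. Mcl1, a short-lived protein that binds Bak1 and BIM (ENSMUSG00000038612, chromosome 3 from 95658788 to 95663176), was highest in COP-like cells of both libraries. Its level there was 322 CPM (296, 349) with vehicle and 228 CPM (217, 238) with teriparatide. It was 130.4 and 106 CPM in preOB-like cells, 126 and 143 CPM in MALP-like cells, and 75.8 and 59.0 CPM in OB-like cells, the lowest of the classes in both libraries. COP-like cells exceeded the next class by a log2 ratio of 1.3 (0.98, 1.64) with vehicle and 0.68 (0.44, 0.91) with teriparatide, and the OB-like cells by 2.09 (1.84, 2.34) and 1.95 (1.72, 2.18). COP-like cells were also the deepest, at a median of 28718 and 30713 UMIs. Thinned to 3400 UMIs each, 66.2% and 45.8% of the COP-like cells still held a UMI of Mcl1, against 22.9% and 20.2% of the OB-like cells. The immediate early and heat shock genes were highest in the same cells. The 10 genes of that list summed to 22186 and 20543 CPM in COP-like cells and to between 1270.4 and 7003 CPM in the other three classes. Their part in the level of Mcl1 was not tested.

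Within the COP-like class, Mcl1 also differed between the 3 clusters. It had 431 and 324 CPM in the cluster led by Cpm, 353 and 220.1 CPM in the cluster led by R3hdml, and 172 and 130.1 CPM in the cluster led by Ppa1, whose leading genes include the mitotic gene Top2a. The Cpm-led cluster exceeded the Ppa1-led cluster by 1.33 (0.98, 1.68) on the log2 scale with vehicle and 1.32 (1.13, 1.51) with teriparatide, so the order was the same in both.

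Bcl2, the founding member of the family (ENSMUSG00000057329, chromosome 1 from 106538178 to 106714274), had another order. It stood at 50.7 CPM (40.4, 62.9) in MALP-like cells of the vehicle and 34.8 CPM (24.8, 47.4) of the teriparatide library. In preOB-like cells it was 46.8 CPM (32.2, 65.7) and 38.0 CPM (25.5, 54.6). These classes could not be told apart from each other in either library. COP-like cells had 16.0 CPM (10.7, 23.0) and 20.9 CPM (17.9, 24.4), and OB-like cells 9.69 CPM (6.14, 14.5) and 15.2 CPM (11, 20.4), again not separable. The highest class exceeded the OB-like cells by a log2 ratio of 2.39 (1.71, 3.12) with vehicle and 1.33 (0.60, 2.03) with teriparatide. Bcl2l1, which also guards mitochondria and is known for keeping maturing erythroid cells alive (ENSMUSG00000007659, chromosome 2 from 152780668 to 152831728), was low throughout the mesenchymal classes, between 4.63 and 14.1 CPM. No neighbouring classes in its order could be told apart. COP-like and OB-like cells of the teriparatide library, at 14.1 and 7.24 CPM, differed by 0.97 (0.28, 1.71) on the log2 scale.

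**Figure D1:**
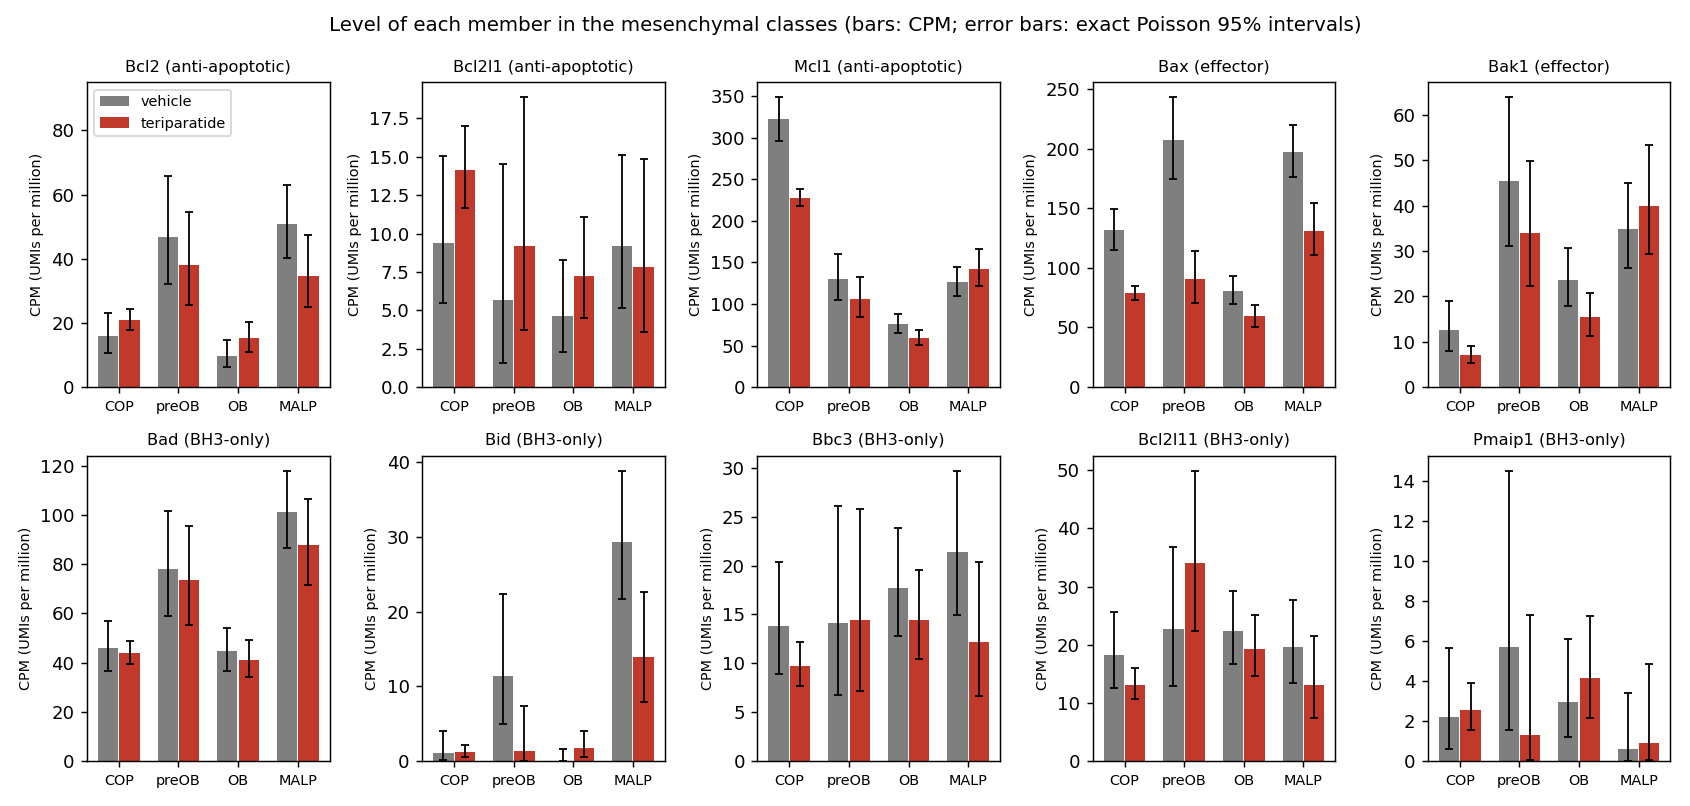
Level of each of the 10 members in the 4 mesenchymal classes, in CPM on a linear axis that starts at 0, with grey bars for the vehicle and red bars for the teriparatide library and exact Poisson 95% intervals as error bars. Mcl1 is tallest in COP-like cells of both libraries (322 and 228 CPM), Bax is lower with teriparatide in all 4 classes, and Bid stands out in MALP-like cells (29.3 and 13.9 CPM).

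The effectors were lowest in different classes. Bax, which moves from the cytosol to mitochondria to form pores (ENSMUSG00000003873, chromosome 7 from 45461697 to 45466898), was lowest in OB-like cells, at 80.9 CPM (69.8, 93.1) with vehicle and 59.3 CPM (50.8, 68.9) with teriparatide. In the vehicle library preOB-like cells, at 207 CPM (175, 243), and MALP-like cells, at 197 CPM (176, 219), could not be told apart. In the teriparatide library MALP-like cells, at 131 CPM (111, 154), exceeded preOB-like cells, at 90.5 CPM (70.4, 114), by a log2 ratio of 0.54 (0.12, 0.97). The highest class exceeded the OB-like cells by 1.36 (1.04, 1.67) and 1.15 (0.82, 1.47). Against the other 3 classes together, Bax in OB-like cells had log2 ratios of -1.07 (-1.31, -0.84) and -0.53 (-0.78, -0.29). The vehicle interval lay below the all-gene median of -0.70, and the teriparatide interval held the all-gene median of -0.50. Bak1, the effector that sits in the mitochondrial membrane (ENSMUSG00000057789, chromosome 17 from 27019810 to 27029009), was lowest in COP-like cells, at 12.7 CPM (8.05, 19.1) and 7.07 CPM (5.34, 9.18). It was 45.4 and 34.1 CPM in preOB-like, 34.8 and 40 CPM in MALP-like, and 23.6 and 15.5 CPM in OB-like cells. OB-like cells exceeded COP-like cells by a log2 ratio of 0.89 (0.17, 1.66) with vehicle and 1.13 (0.54, 1.73) with teriparatide, and the highest class did so by 1.84 (1.02, 2.68) and 2.50 (1.91, 3.09).

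Among the BH3-only genes, Bid and Bad were highest in MALP-like cells, for Bad not separably from preOB-like cells. Bid, which is cut by caspase 8 and so links death receptors to mitochondria (ENSMUSG00000004446, chromosome 6 from 120891930 to 120916853), had 29.3 CPM (21.6, 38.9) in MALP-like cells of the vehicle library, from 48 UMIs in 38 of 125 cells. In the teriparatide library it had 13.9 CPM (7.95, 22.6), from 16 UMIs in 12 of 80 cells. The 113 OB-like cells of the vehicle library, whose median depth of 14545 UMIs was above the 12721 UMIs of the MALP-like cells, held no UMI of Bid, where 3 UMIs would have been 1.26 CPM. Set against that floor, MALP-like cells were 4.54 higher on the log2 scale, with a lower bound of 4.18. MALP-like cells exceeded the next class by 1.37 (0.28, 2.66) with vehicle and 3.01 (1.5, 4.82) with teriparatide. COP-like cells had 1.10 and 1.14 CPM.

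Bad, whose protein is held inactive by growth factor kinases (ENSMUSG00000024959, chromosome 19 from 6941861 to 6951899), formed 2 levels. MALP-like cells had 101 and 87.8 CPM and preOB-like cells 78.0 and 73.4 CPM, while COP-like cells had 45.8 and 44.0 CPM and OB-like cells 44.6 and 41.0 CPM. The preOB-like cells exceeded the COP-like cells by a log2 ratio of 0.77 (0.25, 1.28) and 0.74 (0.30, 1.15), and the classes within each level could not be told apart. Against the other 3 classes together, Bad in OB-like cells had -0.71 (-1.05, -0.39) and -0.33 (-0.63, -0.04), intervals that held the all-gene medians. In MALP-like cells it had 1.02 (0.73, 1.31) and 0.96 (0.64, 1.27), above those medians. The remaining BH3-only genes differed less. Bbc3, a p53 target (ENSMUSG00000002083, chromosome 7 from 16308393 to 16318205), had between 9.72 and 21.4 CPM, and no neighbours in its order were separable. Bcl2l11, a FoxO target whose protein is removed when survival signals are present (ENSMUSG00000027381, chromosome 2 from 128126038 to 128162547), had between 18.2 and 22.7 CPM in the vehicle library with no separable neighbours. In the teriparatide library it was 34.1 CPM in preOB-like, 19.3 CPM in OB-like and 13.1 CPM in COP-like cells, with preOB-like above OB-like by 0.82 (0.09, 1.52) and OB-like above COP-like cells by 0.56 (0.06, 1.04) on the log2 scale. Pmaip1, which neutralises Mcl1 (ENSMUSG00000024521), was near the limit of detection, at most 5.67 CPM. Of the 10 members, 5 had their highest mesenchymal class in common between the libraries: Bcl2l1 and Mcl1 in COP-like, Bad and Bid in MALP-like, and Bcl2l11 in preOB-like cells. That class was not separable from the next for Bcl2l1 and Bad in either library, nor for Bcl2l11 with vehicle. The share of all genes with the same highest class was not counted, so the number cannot be called high or low.

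Summed by role, the anti-apoptotic members held a larger share of the family's UMIs in COP-like cells than in the other three classes. The anti-apoptotic members held 60.7% (57.6, 63.6) of the 1037 member UMIs of COP-like cells in the vehicle library and 62.7% (61.0, 64.3) of 3321 in the teriparatide library. In preOB-like cells the share was 32.2% and 38.1%, in OB-like cells 31.9% and 34.4%, and in MALP-like cells 31.6% and 38.2%. The effectors held 25.2% and 20.5% in COP-like cells and 44.5% and 30.9% in preOB-like cells. These shares of captured molecules do not state how much protein of each role was present, and they rest mainly on Mcl1 and Bax.

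The OB-like class held 2 clusters that differed in several members. One, led by Ifitm5 and the osteocalcin genes of matrix-forming osteoblasts, had 96 and 93 cells. The other, led by Mepe and Dmp1, genes known from cells being embedded in matrix as osteocytes, had 17 and 38 cells. Bcl2 had 118 CPM (60.9, 206) in the Mepe-led and 4.84 CPM (2.42, 8.66) in the Ifitm5-led cluster of the vehicle library. In the teriparatide library it had 109.7 CPM (74.5, 156) and 4.97 CPM (2.64, 8.49). The log2 ratio between the clusters was 4.61 (3.30, 5.93) and 4.46 (3.49, 5.52), and the intervals of the levels did not overlap in either library. After thinning to 3400 UMIs, a UMI of Bcl2 was found in 4 of 15 and 9 of 33 Mepe-led cells and in 0 of 94 and 2 of 91 Ifitm5-led cells. The 3 richest cells held 66.7% and 41.9% of the Bcl2 UMIs of the Mepe-led cluster.

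The same cells were higher in several BH3-only genes. Bcl2l11 had 226 CPM (143, 339) against 13.2 CPM (8.91, 18.8) in the vehicle library and 109.7 CPM (74.5, 156) against 9.55 CPM (6.18, 14.1) in the teriparatide library, log2 ratios of 4.10 (3.25, 4.93) and 3.52 (2.71, 4.34). Bbc3 had 118 against 13.2 CPM and 77.8 against 7.64 CPM, log2 ratios of 3.16 (2.06, 4.17) and 3.35 (2.41, 4.30). Pmaip1 rested on 4 and 7 UMIs in the Mepe-led cluster and had log2 ratios of 4.90 (2.33, 7.67) and 3.70 (1.82, 5.70). Mcl1 was higher too, with 363 against 62.9 CPM and 134 against 50.8 CPM, ratios of 2.53 (1.97, 3.06) and 1.40 (0.84, 1.93). Bax did not follow. It had 78.6 against 81.0 CPM and 60.1 against 59.2 CPM, log2 ratios of -0.04 (-1.28, 0.97) and 0.02 (-0.79, 0.75), so that differences within these intervals were not detectable. Bad and Bak1 had no UMI in the Mepe-led cells of the vehicle library, where 3 UMIs would have been 29.5 CPM, and in the teriparatide library they had 31.8 against 42.0 CPM and 14.2 against 15.7 CPM.

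These clusters were far apart over the whole transcriptome, and the members have to be read against that. Of the genes with at least 50 UMIs in the pair, 28.9% were at least 1.5-fold higher in the Mepe-led cluster and 33.2% lower in the vehicle library, and 34.3% and 29% in the teriparatide library. Mcl1 and Bcl2l11 were the members past that fold upward among the 5 and 4 members that met the same limit. Bad was past it downward in the vehicle library, at -0.66 with the floor as its Mepe-led level. The interval of Bad reached up to -0.34, which is inside that fold. Bcl2 itself, with 23 and 44 UMIs in the pair, was under that limit, and 0.598% and 0.955% of the genes over it had a ratio as high as its own. The Mepe-led cells were shallow, with a median of 6333 UMIs against 24154. Their OB markers summed to 21346 and 30543 CPM, against 207720 and 198869 CPM in the Ifitm5-led cluster, so a smaller share of their UMIs was matrix genes. The 6 monocyte markers summed to 334 and 432 CPM with 5 and 4 of them at 0, against 0.880 and 4.97 CPM. The 6 neutrophil markers summed to 9.82 and 290.1 CPM against 8.80 and 173 CPM. Mast cell markers were at 0 in both libraries. The part of depth, composition and these markers in the result was not tested.

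**Figure D2:**
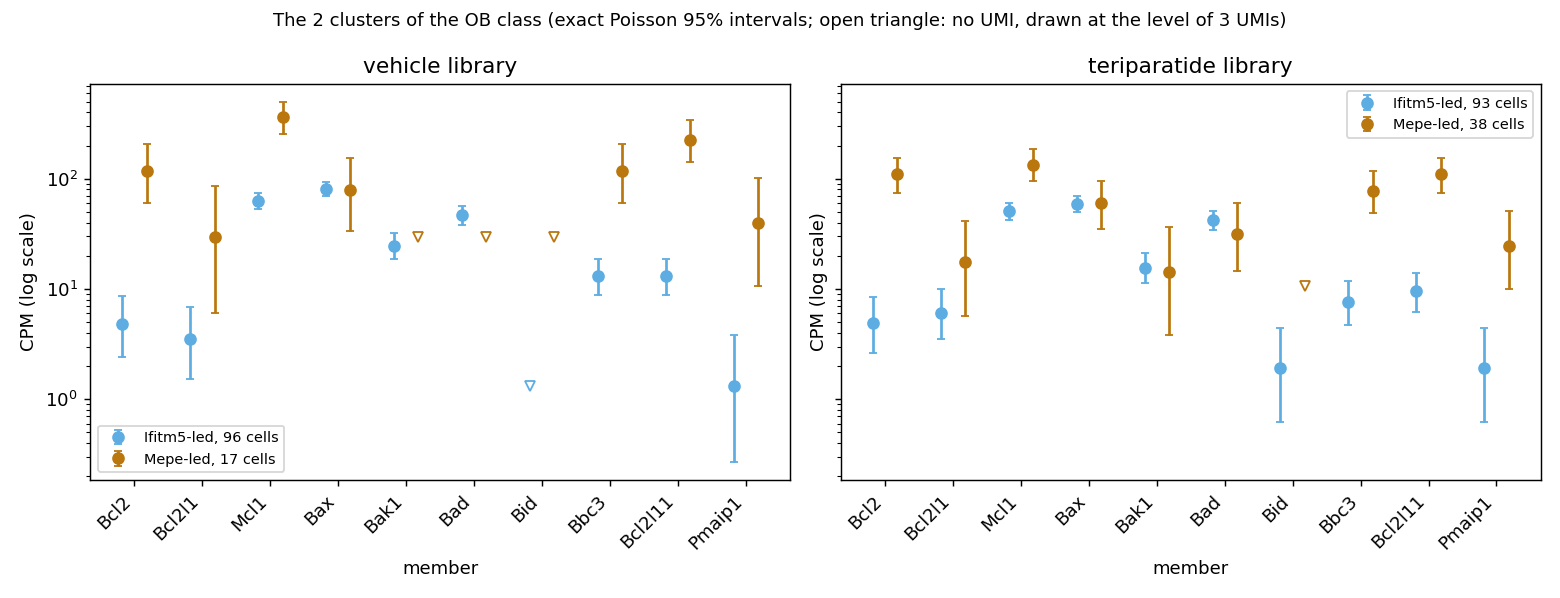
Level of each member in the clusters of the OB-like class led by Ifitm5 (blue) and by Mepe (brown), vehicle library on the left and teriparatide library on the right, in CPM on a log axis with exact Poisson 95% intervals. Open triangles stand at the level of 3 UMIs where no UMI was found. Bcl2, Mcl1, Bbc3 and Bcl2l11 of the Mepe-led cluster lie above the Ifitm5-led cluster with intervals that do not overlap, while Bax is at the same height (78.6 and 81.0 CPM, 60.1 and 59.2 CPM).

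The hematopoietic clusters that passed the sort gave a contrast within the same libraries. Mcl1, known as essential to neutrophils, had 1713 CPM (1503, 1944) in neutrophil-like cells of the vehicle and 956 CPM (916, 998) of the teriparatide library, above every mesenchymal class. It was 964 and 807 CPM in monocyte-like cells. Within the neutrophil-like cells, the cluster led by the inflammatory genes Cxcl2 and Il1b had 2936 and 2520.0 CPM, against 1361 and 738 CPM in the cluster led by the granule gene Ltf, a log2 difference of 1.11 (0.72, 1.49) and 1.77 (1.64, 1.90). The anti-apoptotic members held 94.2% and 87.5% of the member UMIs of neutrophil-like cells.

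Bcl2l1 was far higher in erythroid-like cells than in the 4 mesenchymal classes. They had 79.0 CPM with vehicle and 128 CPM with teriparatide, and the difference between their clusters was larger still. The cluster led by Tmcc2 and the globins, with 16 and 98 cells, had 181 CPM (122, 258) and 281 CPM (246, 319.7). The cluster led by Hemgn and Car1, with 37 and 69 cells, had 32.8 CPM (17.0, 57.3) and 18.3 CPM (11.4, 28.0), so the log2 ratio was 2.46 (1.45, 3.56) and 3.94 (3.29, 4.66). Mcl1 had a lower CPM in the Tmcc2-led cluster, with 30.1 and 20.8 CPM against 129 and 126 CPM in the Hemgn-led cluster. Bax had 42.2 and 7.36 CPM against 104 and 91.7 CPM. Of the genes with at least 50 UMIs in the pair, 27.0% and 42.8% had a ratio at or above that of Mcl1. For Bax these shares were 18.4% and 60.1%. Mcl1 thus fell less than most genes in both libraries, and Bax did so with vehicle only. In the hypertrophic chondrocyte-like cells, of which there were 6 and 22, Bcl2l1 had 77.9 CPM from 7 UMIs and 42.7 CPM. Bcl2l11 and Pmaip1 were higher in monocyte-like cells than in the 4 mesenchymal classes. Monocyte-like cells had 241 CPM (183, 312) and 131 CPM (116, 147) of Bcl2l11 and 80.3 CPM (48.4, 125) and 79.6 CPM (68.0, 92.6) of Pmaip1. The Mepe-led OB-like cells, at 226 and 109.7 CPM, were near these levels of Bcl2l11. Other hematopoietic classes were not all higher. Neutrophil-like cells of the vehicle library had 7.14 CPM of Bcl2l11, and erythroid-like cells had 0 and 0.51 CPM of Pmaip1.

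**Figure D3:**
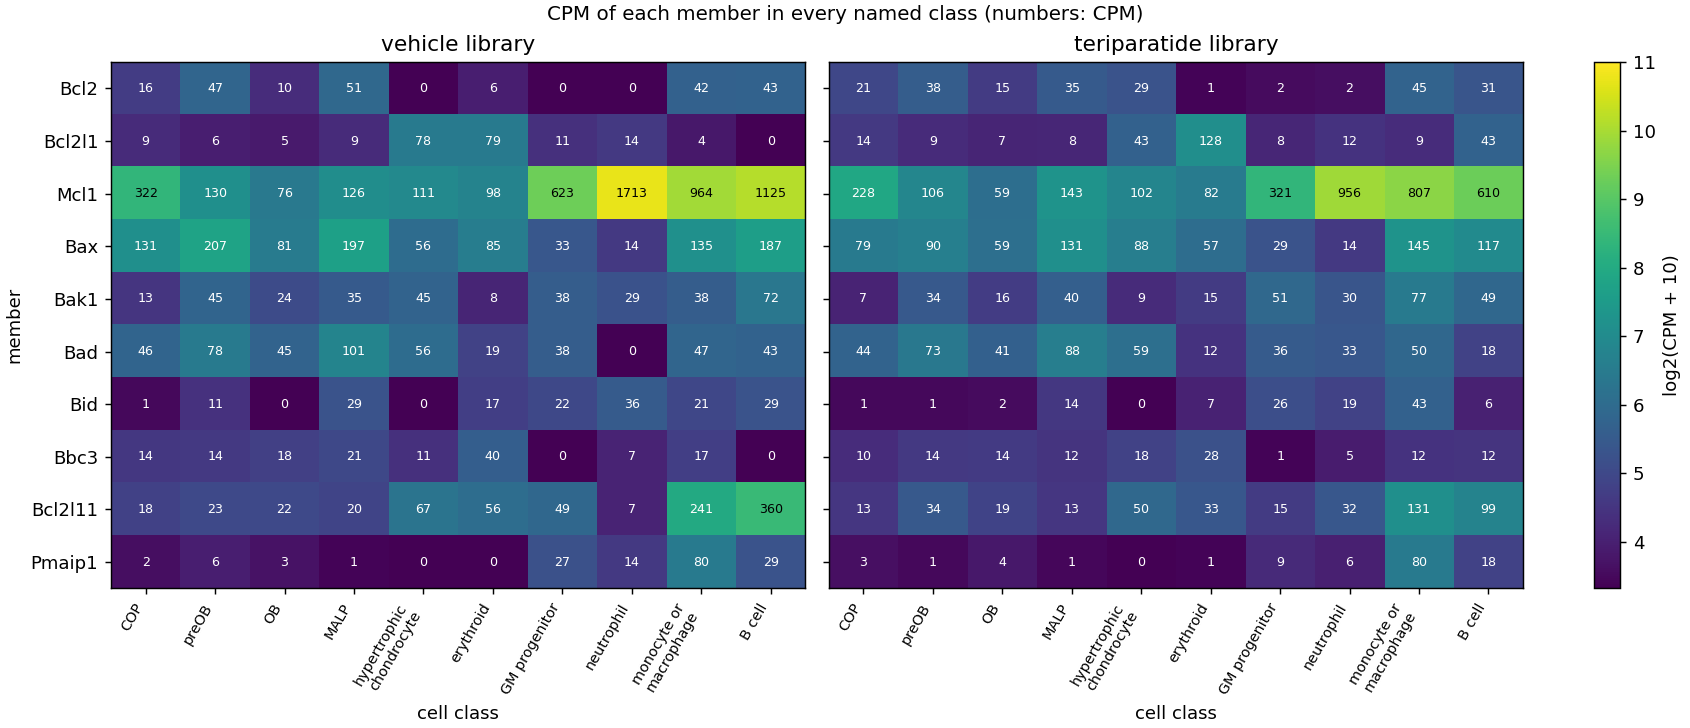
CPM of each member (rows) in every named class (columns), written in each cell and coloured by log2(CPM + 10), for the vehicle library on the left and the teriparatide library on the right. Mcl1 is brightest in neutrophil-like cells (1713 and 956 CPM), Bcl2l1 in erythroid-like cells of both libraries (79.0 and 128 CPM), and the vehicle columns of rare classes rest on few cells.

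Set against vehicle, the teriparatide library had less Bax in each of the 4 mesenchymal classes. COP-like cells had 131 CPM (115, 149) of it with vehicle and 78.8 CPM (72.7, 85.2) with teriparatide, a log2 ratio of -0.74 (-0.96, -0.52). In preOB-like cells the levels were 207 and 90.5 CPM and the ratio -1.19 (-1.63, -0.77), from 146 and 69 UMIs. In OB-like cells, 80.9 and 59.3 CPM gave -0.45 (-0.75, -0.14), and in MALP-like cells, 197 and 131 CPM gave -0.58 (-0.87, -0.30). The intervals left out 0 in all 4 classes and also left out the median ratio of all genes, which was -0.20, -0.15, -0.10 and -0.08. Among all genes with at least 50 UMIs, 9.12%, 3.01%, 19.1% and 10.2% had a ratio as low or lower.

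The other effector and the anti-apoptotic genes differed less uniformly. Bak1 was lower with teriparatide in COP-like cells, 12.7 against 7.07 CPM at -0.85 (-1.57, -0.08), and in OB-like cells, 23.6 against 15.5 CPM at -0.60 (-1.20, -0.01). Both intervals held the median ratio of all genes, -0.20 and -0.10. As low or lower were 5.74% and 10.3% of genes. In preOB-like and MALP-like cells the ratio of Bak1 was -0.41 (-1.22, 0.38) and 0.20 (-0.39, 0.79), so neither direction was detectable. In female cells alone the ratio of Bak1 was 1.66 (-1.15, 7.10) in COP-like cells, from 1 and 10 UMIs. It was 0.41 (-0.90, 1.53) in female OB-like cells, from 38 and 8 UMIs. Mcl1 was lower in COP-like cells at -0.50 (-0.64, -0.36) and in OB-like cells at -0.36 (-0.67, -0.05), and stood at -0.30 (-0.75, 0.15) in preOB-like and 0.17 (-0.13, 0.48) in MALP-like cells. Its interval left out the median of all genes in COP-like but not in OB-like cells. In these classes 22.8% and 25.4% of genes had a ratio as low or lower. Bcl2 had ratios of 0.39 (-0.19, 1.01) in COP-like, -0.30 (-1.07, 0.47) in preOB-like, 0.65 (-0.11, 1.44) in OB-like and -0.54 (-1.13, 0.02) in MALP-like cells, each with an interval that held 0. The value in OB-like cells came with a different mix of their clusters. The Mepe-led cells, rich in Bcl2, were 17 of 113 with vehicle and 38 of 131 with teriparatide, and within the clusters the ratio was 0.04 (-1.24, 1.34) for the Ifitm5-led and -0.10 (-1.11, 0.99) for the Mepe-led cells. Among female OB-like cells, 62 and 9, Bcl2 had 2.28 (0.93, 3.59), from 13 and 10 UMIs, and among male cells 0.22 (-1.11, 1.80). Within the COP-like class Bcl2 had 1.18 (0.19, 2.35) in the R3hdml-led cluster, from 9 and 89 UMIs. It had 0.16 (-1.03, 1.58) in the Cpm-led and -0.41 (-1.33, 0.61) in the Ppa1-led cluster. Bcl2l1 could be read in COP-like cells, at 9.39 and 14.1 CPM and a ratio of 0.59 (-0.15, 1.42). In female cells alone it was -0.28 (-1.86, 1.56), from 5 and 13 UMIs.

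Of the BH3-only genes, Bid was lower with teriparatide in MALP-like cells, 29.3 against 13.9 CPM, at -1.08 (-1.99, -0.23). In male cells it was -1.20 (-2.25, -0.21) and in female cells, of which there were 66 with vehicle and 7 with teriparatide, 0.22 (-2.94, 2.29) from 17 and 2 UMIs. Bad had ratios between -0.21 and -0.06 with intervals that held 0 in all 4 classes, and in COP-like cells it was 0.14 when the median ratio of all genes was set to 0. Bbc3 had -0.51 (-1.17, 0.21) in COP-like and -0.29 (-0.94, 0.36) in OB-like cells, and Bcl2l11 had -0.47 (-1.05, 0.14) and -0.21 (-0.78, 0.36). Within the clusters of the OB-like class, whose mix differed between the libraries, Bcl2l11 had -0.47 (-1.29, 0.35) in Ifitm5-led cells. In Mepe-led cells it had -1.04 (-1.87, -0.20), from 23 and 31 UMIs. Bbc3 had -0.79 (-1.68, 0.08) and -0.60 (-1.68, 0.55) in the same clusters. In male OB-like cells Bcl2l11 was -1.05 (-1.79, -0.29) and in female cells -0.66 (-3.80, 1.38), the latter from 20 and 2 UMIs. Pmaip1 had too few UMIs in every mesenchymal class.

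Counted at a fold of 1.5, few members passed. In COP-like cells 8 members had at least 50 UMIs over both libraries, and 1 (Bcl2l1) was higher and 2 (Bax and Bak1) lower with teriparatide, where 8.21% of all genes were higher and 16.8% lower. In preOB-like cells it was 0 higher and 1 (Bax) lower of 5, beside 8.28% and 18.7% of all genes. In OB-like cells 1 (Bcl2) of 7 was higher and 1 (Bak1) lower, beside 7.5% and 11.1%. In MALP-like cells 0 of 6 were higher and 1 (Bid) lower, beside 8.25% and 10.1%, and Bax was just inside the limit. The median ratio of the members that could be read was -0.49, -0.30, -0.29 and -0.38 in COP-like, preOB-like, OB-like and MALP-like cells. These counts are small, and the shares of members past the fold were near those of all genes.

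**Figure D4:**
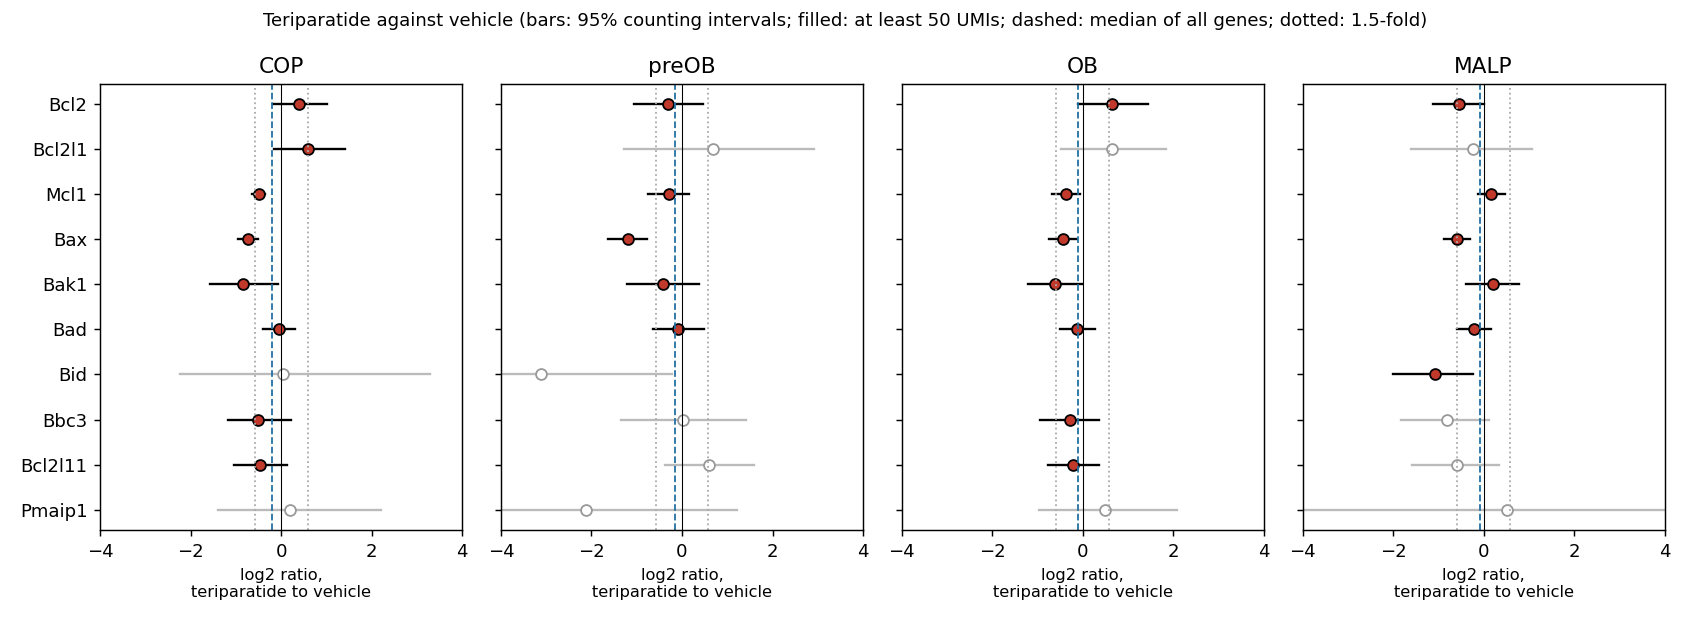
Log2 ratio of each member's CPM, teriparatide over vehicle, in the 4 mesenchymal classes with 95% counting intervals, filled where the member had at least 50 UMIs over both libraries and open otherwise; some intervals run past the axis. The dashed line is the median of all genes and the dotted lines are 1.5-fold. Bax lies to the left of the median of all genes in each class (-0.74, -1.19, -0.45 and -0.58), while Bad lies near 0.

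The difference in Bax was followed within sexes and clusters, since the teriparatide library held a larger share of male cells. In male cells alone the ratio was -0.90 (-1.14, -0.66) in COP-like, -1.12 (-1.72, -0.51) in preOB-like, -0.67 (-1.10, -0.23) in OB-like and -0.48 (-0.84, -0.12) in MALP-like cells, so it was as large or nearly so within that sex. In female cells the ratio was 0.28 (-0.36, 0.98), -0.67 (-1.52, 0.10), -0.48 (-1.44, 0.35) and -0.42 (-1.36, 0.39), with intervals that held 0 in all 4 classes, and the difference between the sexes was not tested. Within the COP-like clusters it was -0.99 (-1.34, -0.63) in the Cpm-led, -0.33 (-0.76, 0.13) in the R3hdml-led and -0.78 (-1.16, -0.40) in the Ppa1-led cluster. Within the Ifitm5-led OB-like cluster it was -0.45 (-0.77, -0.14). Mcl1 in COP-like cells was lower with teriparatide in both sexes, at -0.43 (-0.58, -0.28) in male and -1.21 (-1.60, -0.82) in female cells, and in each of the 3 clusters, at -0.41, -0.68 and -0.40.

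Markers of other cells differed between the libraries in the same classes. The 6 neutrophil markers summed to 12.7 and 134 CPM in COP-like, 87.9 and 212 CPM in preOB-like, 8.84 and 184 CPM in OB-like and 66.6 and 212 CPM in MALP-like cells of the vehicle and teriparatide libraries. The 8 erythroid markers summed to 16.0 to 144 CPM with vehicle and 87.3 to 244 CPM with teriparatide, with between 1 and 4 of them at 0 in a class. All 10 immediate early and heat shock genes were detected in every class, and their sum was lower with teriparatide in preOB-like (2648 and 1270.4 CPM), MALP-like (7003 and 3276 CPM) and OB-like cells (6870.1 and 3862 CPM), but nearly level in COP-like cells. The part of these in the member ratios was not tested.

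**Figure D5:**
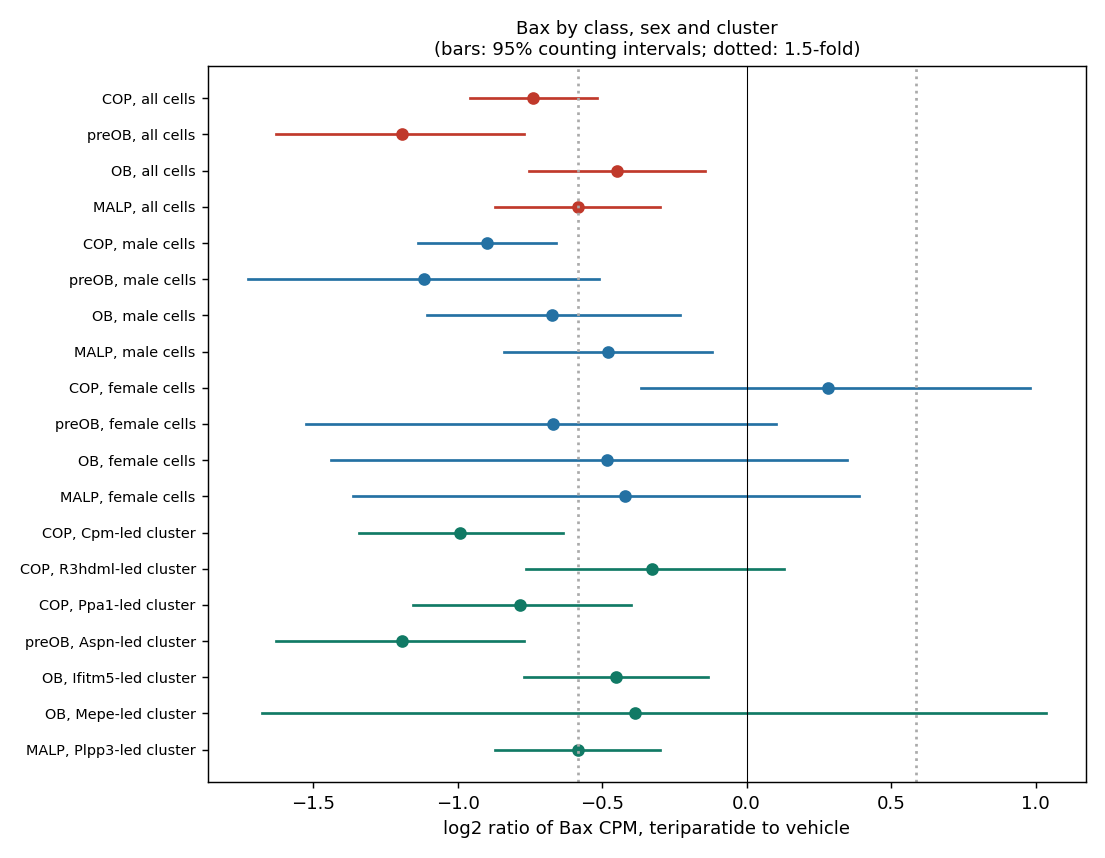
Log2 ratio of Bax CPM, teriparatide over vehicle, with 95% counting intervals, for all cells of each mesenchymal class (red), for male and female cells apart (blue) and for each cluster (green); the dotted lines are 1.5-fold. All points lie below 0 except the female COP-like cells at 0.28, and the intervals of the female cells are wide.

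The genes around the family gave the setting. Beside the counts of these short lists, 8.21%, 8.28%, 7.5% and 8.25% of all genes were 1.5-fold higher in COP-like, preOB-like, OB-like and MALP-like cells. Lower were 16.8%, 18.7%, 11.1% and 10.1%. Cycs, the cytochrome c that Bax and Bak1 release, was lower with teriparatide in COP-like cells, 194 against 112 CPM at -0.79 (-0.97, -0.60), and in preOB-like cells, 160.2 against 76.0 CPM at -1.07 (-1.56, -0.61). It stood at -0.57 (-0.81, -0.33) in OB-like and -0.56 (-0.90, -0.23) in MALP-like cells. Of the caspase and apoptosome genes, none was 1.5-fold higher in any class, and 1 of 9, 1 of 4, 1 of 9 and 0 of 7 were lower in COP-like, preOB-like, OB-like and MALP-like cells, the gene in OB-like cells being Aifm1 (25.3 against 12.1 CPM). The inhibitors of apoptosis, such as Xiap and Birc2, had 6, 4, 4 and 5 readable genes and none past the fold in either direction. Of the death receptors and adaptors, 2 of 4 were lower in COP-like cells (Tradd at -0.82 and Tnfrsf10b at -0.73) and 1 of 3 in OB-like cells (Tradd at -0.89), with none past the fold among 1 in preOB-like and 3 in MALP-like cells.

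The p53 list had 4 of 10 genes lower in COP-like, 1 of 4 in preOB-like, 4 of 9 in OB-like and 3 of 7 in MALP-like cells, and Trp53inp1 higher in both OB-like and MALP-like cells. All genes also ran lower more often than higher, with 16.8%, 18.7%, 11.1% and 10.1% lower in these classes. Cdkn1a, the cell cycle inhibitor p21, had 229 and 40.9 CPM in MALP-like cells, a ratio of -2.49 (-2.96, -2.05), and 363 and 203 CPM in OB-like cells, a ratio of -0.84 (-0.99, -0.69). Bbc3, a member under the same factor, had a ratio whose interval held 0 in each of these classes. In MALP-like cells it was -0.81 (-1.82, 0.12), from 35 and 14 UMIs, under the limit of 50. There it was -1.47 (-2.88, -0.20) in male and 0.98 (-1.45, 2.80) in female cells, the latter from 15 and 3 UMIs. In the integrated stress response list, 1 of 6, 2 of 2, 2 of 5 and 3 of 4 genes were lower and none higher; Atf4, its central factor, had -0.53, -0.70, -0.38 and -0.28. The immediate early and heat shock list had 0 of 10 genes past the fold in COP-like cells and 8 of 9, 9 of 10 and 9 of 10 lower in the other three classes, led by Hspa1a and Hspa1b in preOB-like and MALP-like cells.

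Other relatives of the family gave single genes. The mitophagy receptor Bnip3 was higher with teriparatide in MALP-like cells (29.3 and 51.3 CPM at 0.81, 0.23 to 1.39) and Bnip3l in preOB-like cells (112 and 170.4 CPM at 0.61, 0.19 to 1.03), while Bok had -1.24 (-2.19, -0.35) in preOB-like and Bcl2l12 -1.09 (-1.68, -0.47) in COP-like cells. Past the fold were 1 of 6 (lower) in COP-like, 2 of 3 (1 each way) in preOB-like, 1 of 5 (higher) in OB-like and 1 of 4 (higher) in MALP-like cells. Of all genes, 7.5% to 8.28% were higher and 10.1% to 18.7% lower in these classes, and counts from so few genes say little beside that. Of the FoxO factors, which can drive Bcl2l11, 2 of 3 were higher in COP-like cells, Foxo1 at 32.0 and 60.7 CPM (0.92, 0.53 to 1.34) and Foxo3 at 0.63 (0.20, 1.07). Foxo1 was higher in MALP-like cells as well, at 0.97 (0.33, 1.62), and none of 1 and 3 was past the fold in preOB-like and OB-like cells. Of the cell cycle genes, 4 of 10 were higher and 4 lower in COP-like cells, Top2a at 1.44 (0.92, 2.01) and Ccnb1 at -1.99 (-2.57, -1.40), 0 of 1 in OB-like cells, and 1 of 1, Pcna at -0.74 (-1.38, -0.13), was lower in MALP-like cells. No gene of that list was readable in preOB-like cells.

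The hematopoietic classes differed between the libraries too, in cells that were meant to be sorted out. Mcl1 was lower with teriparatide in neutrophil-like cells at -0.84 (-1.03, -0.64). The Cxcl2-led cluster, rich in Mcl1, was 8 of 22 of these cells with vehicle and 45 of 192 with teriparatide, and within it the ratio was -0.22 (-0.54, 0.11), against -0.88 (-1.13, -0.63) in the Ltf-led cluster. Mcl1 was also lower in granulocyte-monocyte progenitor-like cells at -0.96 (-1.25, -0.66), from 8 and 54 cells. The 3 richest of the 8 vehicle cells held 66.7% of their Mcl1 UMIs. By sex the ratio was -0.38 (-0.93, 0.22) in male and -0.49 (-1.35, 0.46) in female cells. In monocyte-like cells Mcl1 stood at -0.26 (-0.46, -0.05), with 0.12 (-0.25, 0.51) in male and -0.47 (-0.75, -0.18) in female cells. The first of these intervals held the median ratio of all genes, -0.11, and 38.9% of genes were as low or lower. Bcl2l11 was lower in monocyte-like cells at -0.88 (-1.30, -0.44). In erythroid-like cells Bcl2l1 was higher at 0.69 (0.21, 1.20) and Bax lower at -0.58 (-1.09, -0.05). The interval of Bax held the median ratio of all genes, -0.12. The Tmcc2-led cluster, rich in Bcl2l1 and with a lower CPM of Bax, was 16 of 53 erythroid-like cells with vehicle and 98 of 167 with teriparatide. Within it Bcl2l1 stood at 0.63 (0.08, 1.24) and Bax at -2.52 (-4.37, -0.72), the latter from 7 and 6 UMIs. Within the Hemgn-led cluster they were -0.84 (-1.93, 0.32) and -0.18 (-0.73, 0.40). Bcl2l1 was 2.33 (0.70, 4.66) in male and -0.20 (-1.35, 1.19) in female erythroid-like cells, with 3 and 7 vehicle UMIs.

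Over the 18 sums of a class in a library with at least 10 cells, the genes whose level ran most like that of a member were found by Pearson's r of log2(CPM + 10). The 18 points share libraries and depth, and r is given as a description. Mcl1 ran most like Bcl10 (0.968), Ccnl1 (0.962) and Sde2 (0.959), and Bax most like Psma3 (0.951), Prdx1 (0.945) and Anapc16 (0.941). Bcl2 ran most like Itpr1 (0.942), Rexo4 (0.94) and Sfxn3 (0.926). The closest gene was Tor2a for Bad (0.932), AI413582 for Bak1 (0.908), Oas1a for Bid (0.904), Irf8 for Bcl2l11 (0.901), Isg20 for Bcl2l1 (0.851) and Ttll12 for Bbc3 (0.861), while Gpr132 and Pld4 were level for Pmaip1 (0.94).

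Bcl2, Bak1, Bad and Bid each overlap a counted gene on the opposite strand in the annotation, D630008O14Rik, Ggnbp1, Gpr137 and Bcl2l13. Whether the counting used the strand was not given in the sources used here, and without it their reads could not be told apart from those of the partner. On the same strand, Bax overlaps the protein-coding gene Gm45808, which was not among the counted genes. The part of Gm45808 in the counts of Bax was not tested.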

How the data were processed

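Single cells from 1 vehicle and 1 teriparatide library of mouse femoral metaphysis were analysed. Per the labels and file headers, the authors used the genome mm10 and obtained UMI counts per gene from Cell Ranger (version 2.1.0 in the submitters' processing notes, 3.1.0 in the matrix header); the deposited values are raw counts. The members and gene lists were chosen with earlier results of these data known.

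Cells with 200 to 6000 genes and at most 10% mitochondrial UMIs, the limits of the study, were kept. Canonical correlation analysis (Seurat 5.3.0, R 4.3.3) joined the libraries on 2000 variable genes, without the members, lists, markers and sex-linked genes, and the cells were clustered on 20 principal components at resolution 0.6. Clusters in which over 25% of cells held Ptprc, and erythroid clusters, were set aside and the rest clustered again. A class needed at least 3 of its markers, and clusters led by genes against their markers stayed unnamed (61 vehicle and 69 teriparatide cells). No cells were removed as doublets in the values reported, and Scrublet (scanpy 1.11.5) was run as an alternative. A cell was called male from Ddx3y, Eif2s3y, Uty or Kdm5d without Xist, and female from Xist without these.

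Counts were summed per class and library (Python 3.11.15, pandas 2.3.3, scipy 1.17.1) and given as CPM with 95% intervals. No model was fitted, since cells are not replicates; members with at least 50 UMIs over both libraries were counted past 1.5-fold beside all genes with that many. A level of 0 was read against a floor of 3 UMIs. The intervals of the ratios were tested on simulated data drawn from the same counting model, without spread between cells. That test could not show how well they fit these cells. Alternatives covered the mitochondrial limit, cluster resolution, a direct marker gate, sex, depth, cell weights, scaling, doublets and the UMI minimum. All members were described, and from each list at most the 3 genes with the largest ratio per class were named. Gene positions came from GENCODE vM21 (GRCm38).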

Additional observations from a re-analysis of the deposited data

Results flagged for a closer look

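The barcodes that exceeded the mitochondrial limit take no part in the comparisons, and 4 member levels were higher in them than in the kept cells. These were picked from all members in both libraries because the interval of their ratio lay above 0. The share of all genes that would be picked in this way was not counted. Barcodes over 10% mitochondrial UMIs with at least 200 genes numbered 325 with vehicle and 284 with teriparatide. Per 1000000 UMIs of genes outside the mitochondrial genome, Bcl2 had 46.7 in them against 23.8 in kept cells of the vehicle library, a log2 ratio of 0.97 (0.50, 1.43). In the teriparatide library it had 29.5 against 19.3, a ratio of 0.61 (0.04, 1.14). Bcl2l1 had 23.8 against 13.1 in the vehicle library, a ratio of 0.86 (0.18, 1.49), and Bak1 had 38.5 against 26.5, a ratio of 0.54 (0.02, 1.02). In the teriparatide library these genes had ratios of -0.61 (-1.43, 0.10) and -0.16 (-0.81, 0.43), intervals that held 0. Bid had -0.98 (-2.46, 0.21) with vehicle and -2.50 (-5.56, -0.63) with teriparatide, from 6 and 2 UMIs. Mcl1 was lower in the same barcodes, at -1.74 (-2.09, -1.41) with vehicle and -0.49 (-0.68, -0.31) with teriparatide. The mix of cell types in these barcodes was not resolved and its part was not tested.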

How the results depend on the processing

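No paired analysis was possible because each condition had 1 library, and for the same reason no replicate could be left out. Leaving out doublets removed no mesenchymal cell, and the alternative limited to the largest cluster kept every cell of the preOB-like and MALP-like classes. Values under those settings repeated the reported ratios and could not differ from them. With these counted in, 247 of 286 values stayed within the 95% interval of the reported ratio, over 26 member ratios under 11 alternatives. The sign changed in 28, of which 11 were in female cells alone and 17 under other settings, and 23 belonged to ratios within 1.5-fold, such as Bad in COP-like cells, which kept its sign in 7 of 11, Bbc3 in COP-like cells (0.93 in the largest cluster) and Mcl1 in OB-like cells (0.12 in female cells). The 5 sign changes of ratios past 1.5-fold were all in female cells: Bcl2l1 in COP-like cells (-0.28), Bax in COP-like cells (0.28), Bak1 in COP-like (1.66) and OB-like cells (0.41) and Bid in MALP-like cells (0.22). The intervals of these female ratios all held 0, and Bak1 in COP-like cells rested on 1 vehicle UMI. Bax kept its sign in preOB-like, OB-like and MALP-like cells under all 11, repeated values included, and in COP-like cells under 10. Over the alternatives its lowest and highest ratios were -1.45 and -0.67 in preOB-like cells and -0.81 and -0.34 in OB-like cells. In MALP-like cells they were -0.62 and -0.28. These are ranges of ratios and not 95% intervals. Counts past 1.5-fold rest on few members and moved often. Higher in COP-like cells (main 1) were 0 at a 20% mitochondrial limit, 3 in female cells, 3 after thinning to 3400 UMIs, 2 in the largest cluster and 2 with the median ratio set to 0, and lower (main 2) were 4 after thinning and 1 with the median at 0. In preOB-like cells 1 was higher (main 0) with genes of at least 20 UMIs, and lower (main 1) were 3 at the 20% limit, 3 in male cells, 3 after thinning and 2 with cells weighted equally. In OB-like cells, higher (main 1) were 0 at the 20% limit, 0 by direct marker gate, 0 in male cells, 0 in the largest cluster and 2 from 20 UMIs. Lower (main 1) were 0 at the 20% limit, 0 at resolution 1.0, 4 in male cells, 2 in female cells, 2 after thinning, 2 in the largest cluster, 0 with equal weights and 0 with the median at 0. In MALP-like cells 1 was higher (main 0) after thinning, and lower (main 1) were 2 at the 20% limit, 2 in male cells, 2 in female cells, 0 after thinning, 2 with equal weights and 2 from 20 UMIs. Members with the same highest class in both libraries (main 5) were 9 by marker gate and 3 in the largest clusters. The largest-cluster alternative was added after seeing the data, and the causes were not tested. Scrublet called 1 vehicle (0.182%) and 0 teriparatide cells, none mesenchymal, which says little about doublets.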
